A study of Bos taurus with 4 samples.

Results

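The 8-oxoG loci that lay in introns were examined in the sperm DNA of 2 bulls, C13, which was fertile, and C14, which was infertile. A locus was counted as intronic when the deposited annotation placed it in an intron of a transcript. This held for 83 of 370 loci of C13 and 142 of 614 loci of C14, 225 of 984 in all. Nearly all of the others were distal intergenic, 284 in C13 and 459 in C14.

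Both animals were Korean native striped cattle aged 6 years. OG-seq had been applied, with 1 enriched library and 1 input library per bull. In OG-seq, 8-oxoG is tagged with biotin, the tagged fragments are captured, and the complementary strands released from them are sequenced. Loci were called in each bull against its own input. With 1 bull per condition, fertility and the individual animal cannot be told apart, and every comparison below is between these 2 lists. The loci within a list are not replicates, and intervals and p-values cover counting error only. No marker of sperm can be read from a list of DNA loci, so the labelled cell type was not checked here.

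8-oxoG is an oxidized form of guanine that can pair with adenine and is removed mainly by base excision repair, which the glycosylase OGG1 starts. Most of the DNA of mature sperm is packed with protamines. Introns are transcribed but spliced out of the mRNA, and in mammals they make up most of the length of long genes. An annotation of a locus by the nearest transcription start site (TSS) can therefore name a gene other than the one whose intron holds the locus. In this report the host gene is the gene named in the intron annotation, and the assigned gene is the one with the nearest TSS.

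The intron loci were gathered in few genes. The 83 loci of C13 lay in 40 host genes, of which 28 held 1 locus. The 142 loci of C14 lay in 59 host genes, of which 43 held 1 locus. In all, 77 genes were hosts, and all of their gene numbers were found among protein-coding genes of the reference gene table. The introns that held 5 or more loci in a list were 5 in number, in KIRREL3, RNF122, WRN, ADAMTS3 and UBN2. These 5 introns held 41 of 83 loci in C13 (49.4%) and 73 of 142 in C14 (51.4%). Distal intergenic loci were gathered as well. Without the genes assigned to 5 or more of them in a list, 189 of 284 remained in C13 and 289 of 459 in C14. Chromosome 27 alone, which carries RNF122 and WRN, held 22 intron loci in C13 and 36 in C14.

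**Figure D1:**
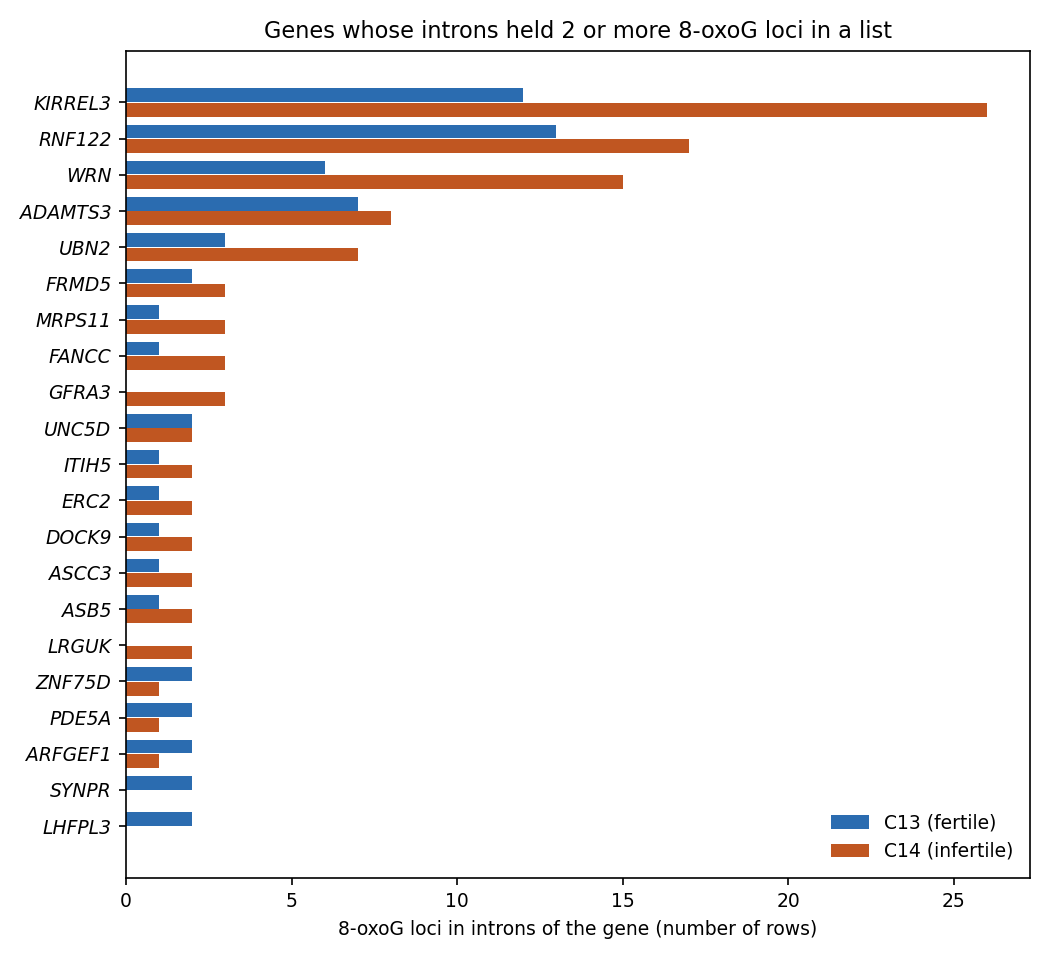
Number of 8-oxoG loci listed in introns of each gene (x axis, rows of the list), for C13 in blue and C14 in orange, for genes with 2 or more loci in a list. KIRREL3 led in C14 with 26 loci and RNF122 led in C13 with 13, and both exceeded every gene outside the 5 named above, none of which held more than 3.

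KIRREL3 encodes an adhesion protein of the immunoglobulin superfamily. Its intron 13 of 14, as numbered in the annotation, held 12 loci in C13 and 26 in C14 within 145066 bp (chr29:30240426-30385491, bosTau8). All of these loci were assigned to ST3GAL4, a sialyltransferase, whose TSS was 167.4 to 312.2 kb away. The pileup, the number of reads stacked at the summit of a locus, ranged from 8 to 46 in C13 with a median of 21.0. It ranged from 9 to 115 in C14 with a median of 41.0. All 12 loci of C13 overlapped a locus of C14, whereas 15 of the 26 loci of C14 overlapped none of C13. Over all loci of the lists, 57.0% in C13 and 36.6% in C14 overlapped the other list, so that most loci of C14 had no counterpart. Those 15 had pileups from 9 to 74, so they were not restricted to the weak end of the list. The most enriched locus of this intron (chr29:30351997-30352243 in C13) had a pileup of 46 in C13 and 85 in C14, with fold enrichments of 25.8 and 23.4. The locus with the highest pileup, 115 in C14, had a fold enrichment of only 2.75, the lowest among the intron loci of that list, and stood over a background 114.8 times the lowest. The same position in C13 carried 2 summits of 39 and 22 reads, with fold enrichments of 5.06 and 3.87. The weakest locus of C13 in this intron had a pileup of 8, and its counterpart in C14 had 24.

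RNF122 encodes a RING-type ubiquitin ligase. Its intron 5 of 5 held 13 loci in C13 and 17 in C14, spread over 477042 bp (chr27:28460603-28937644). The gene model of RNF122 was 497663 bp long in the annotation used. RNF122 itself was the assigned gene of 5 of these loci in C13 and of 7 in C14, and for the rest it was TTI2, a cofactor in the maturation of phosphatidylinositol 3-kinase-related kinases. Pileups were 6 to 15 in C13 (median 11.0) and 10 to 61 in C14 (median 25). In each list 7 of the loci overlapped the other list, leaving 6 of 13 loci of C13 and 10 of 17 of C14 with no counterpart, which is near the shares over all loci given above. Along the intron the 7 overlapping loci had pileups of 6, 8, 15, 12, 12, 6 and 15 in C13. At the same positions they had 21, 18, 25, 28, 61, 26 and 27 in C14, each above its counterpart. Fold enrichment was lower in C14 at the position with 28 reads (5.05 against 7.90) and higher at the others. The locus nearest to the RNF122 TSS, 9.678 kb away in C13, had the highest fold enrichment of the intron in both bulls, 14.1 in C13 and 20.6 in C14. The 6 loci without a counterpart in C13 did not exceed a pileup of 11, whereas those without one in C14 reached 39. The loci were spaced widely, with a median gap of 35.94 kb in C13 and 16.07 kb in C14.

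WRN encodes a RecQ helicase with exonuclease activity that acts in DNA repair and is mutated in Werner syndrome. All of its loci, 6 in C13 and 15 in C14, lay in intron 17 of 33. They began 64.06 to 123.9 kb downstream of the WRN TSS, in a gene of 186793 bp, and all were assigned to WRN. The 6 loci of C13 had pileups of 11, 9, 10, 11, 17 and 11 along the intron. The 15 loci of C14 ranged from 8 to 43 with a median of 27. Overlap was found for 5 loci of each list, in which the C14 pileup was higher each time, as 25, 28, 41, 21 and 43 against 11, 9, 10, 11 and 17. Fold enrichment at these positions was 14.2, 11.6, 17.5, 9.33 and 10.2 in C14, against 10.6, 8.18, 9.19, 9.67 and 12.9 in C13. It was thus lower in C14 at the positions with 21 and 43 reads and higher at the others. The last locus of C13 had no counterpart in C14, and 10 of 15 loci of C14 had none in C13, again near the share over all loci of C14.

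ADAMTS3 encodes a protease that trims procollagen. Its intron 17 of 21 held 7 loci in C13 and 8 in C14 within 17246 bp (chr6:89202156-89219401). Pileups were 8 to 24 in C13 and 16 to 83 in C14, and these ranges overlapped. Overlap with the other list was found for 6 of 7 loci in C13 and 5 of 8 in C14. The highest pileup, 83 in C14, stood over a local background 62.47 times the lowest of that list, and its fold enrichment was only 3.59. A neighbouring locus with a pileup of 51 had a background 2.35 times the lowest and a fold enrichment of 28.2.

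UBN2 encodes a ubinuclein, a partner of the histone H3.3 chaperone HIRA. Its intron 6 of 17 held 3 loci in C13, with pileups of 25, 13 and 9. The same intron held 7 loci in C14, and the 3 that overlapped those of C13 had pileups of 71, 13 and 27. These 3 positions were assigned to FMC1 in both lists. The other 4 loci of C14, with pileups of 19, 8, 23 and 22, were assigned to UBN2 itself, so that UBN2 was an assigned gene in C14 but not in C13. The locus of 25 and 71 reads (chr4:103660612-103660894 in C13) had fold enrichments of 22.2 and 34.8, and the latter was the highest among the intron loci of C14 after the SUFU locus. The other overlapping positions had lower fold enrichments in C14 than in C13, at 5.02 against 11.4 and 5.94 against 6.57.

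**Figure D2:**
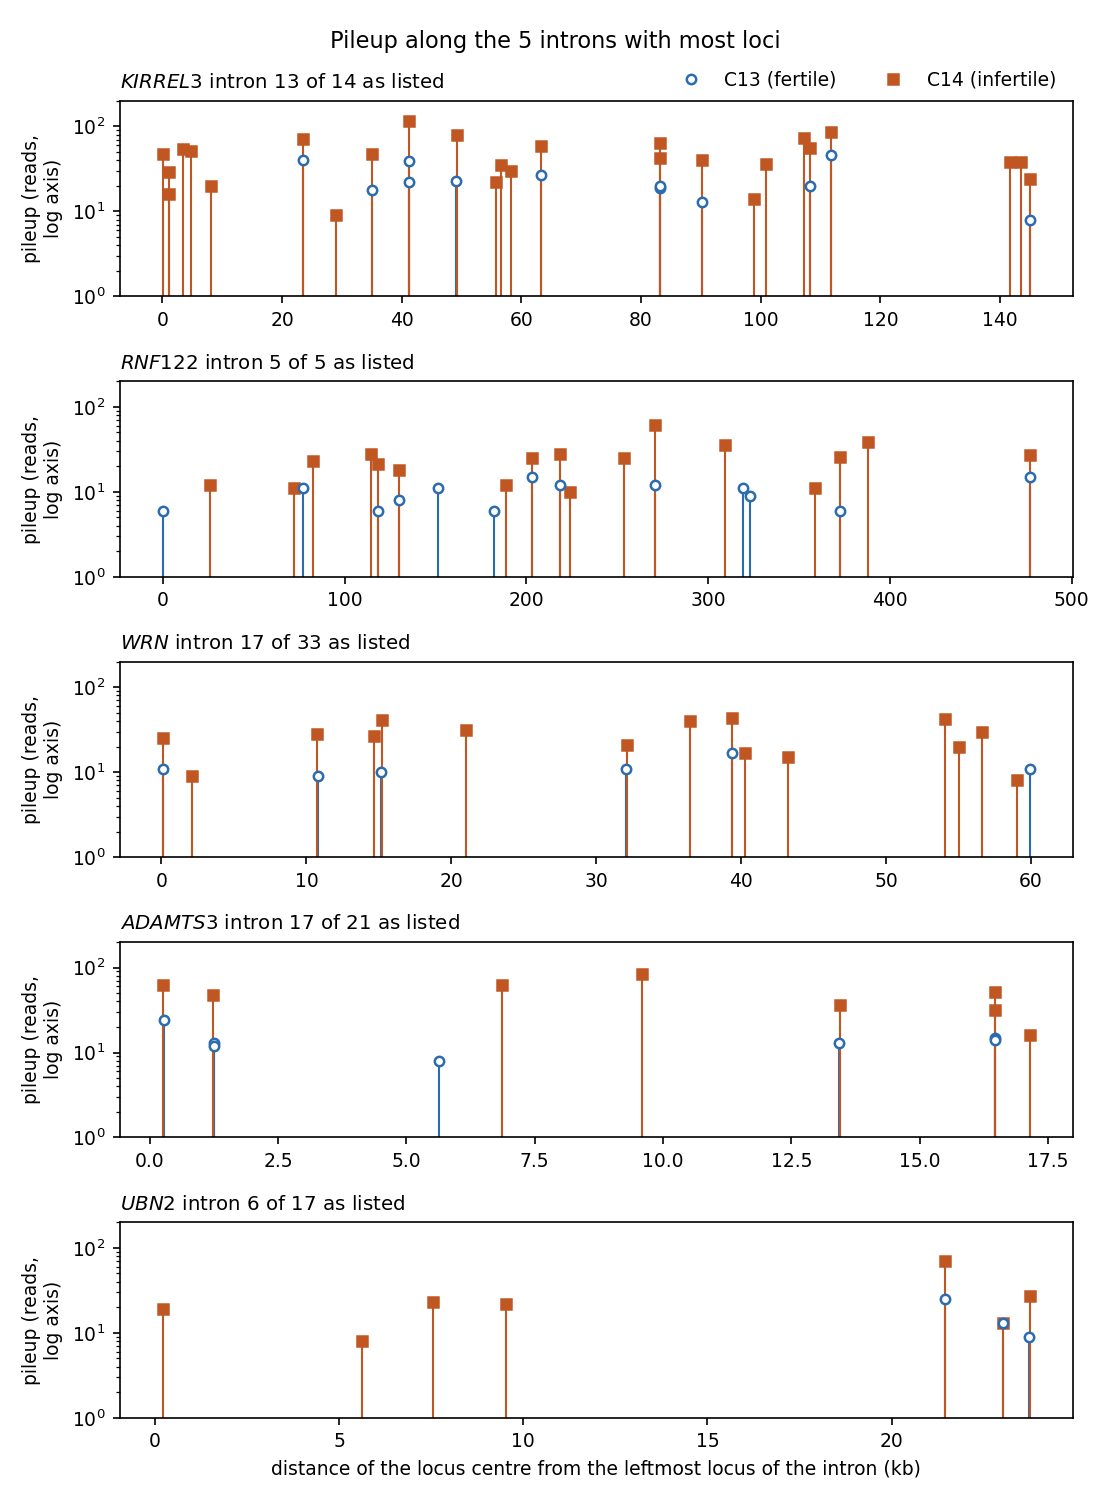
Pileup of every locus (y axis, reads, log axis) along the 5 introns with most loci, by distance from the leftmost locus of each intron (x axis, kb), for C13 (open circles) and C14 (filled squares). All circles of KIRREL3 and UBN2 share their position with a square, whereas 6 circles in RNF122 and 1 each in WRN and ADAMTS3 stand alone.

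Overlap by position with the other list was then compared between intron and distal intergenic loci, to see whether the intron loci recurred more often. Overlap of at least 1 bp was found for 47 of 83 intron loci of C13 (56.6%, 95% Wilson interval 45.9 to 66.8) and 164 of 284 distal intergenic loci (57.7%). Over all loci of C13 the share was 57.0%. In C14, 47 of 142 intron loci overlapped (33.1%, interval 25.9 to 41.2) against 178 of 459 distal intergenic loci (38.8%), and 36.6% over all loci. The difference was -1.12 percentage points in C13 (interval -13.2 to 10.6, Fisher's exact test, two-sided, p = 0.90, adjusted p = 0.90). It was -5.68 points in C14 (interval -14.2 to 3.51, Fisher's exact test, p = 0.235, adjusted p = 0.573). Neither difference passed the threshold, and both intervals include differences of either sign. Adjustment was by Benjamini-Hochberg over the 5 Fisher tests made in all.

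Overlap was also counted apart for the 5 introns with most loci, a split made after seeing the data. An intron enters that group through its number of loci in either list, and the groups of introns were not tested against each other. In the 5 introns with most loci, 33 of 41 loci of C13 (80.5%) and 31 of 73 of C14 (42.5%) overlapped the other list. In the remaining introns, 14 of 42 loci of C13 (33.3%, interval 21.0 to 48.5) and 16 of 69 of C14 (23.2%, interval 14.8 to 34.4) did so. Without these introns, and without genes assigned to 5 or more distal intergenic loci, the difference from distal intergenic loci was -16.4 points in C13 (adjusted p = 0.306) and -11.4 points in C14 (adjusted p = 0.427) by Fisher's exact test.

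Every intron locus that overlapped did so with a locus in an intron of the other list. There were 54 such pairs, since some intervals carried more than 1 summit, and they fell in 17 host genes. Summits lay a median of 17.5 bp apart and within 50 bp of each other in 40 of the 54 pairs. The C14 pileup was higher in 53 pairs and equal in 1, the UBN2 pair at 13 reads. Distal intergenic loci had a higher C14 pileup in 190 of 198 pairs, so this was common to the lists. The ratio of C14 to C13 pileup had a median of 2.88 in the intron pairs and 2.39 in the distal intergenic pairs. In the 34 intron pairs in which each locus had a single partner, the median was 2.69 and the range 1.0 to 5.08. Pileups were compared without scaling between the lists, and the enriched library of C14 was the more deeply sequenced. The part of depth in these ratios was not tested. The lowest local background was 2.66 times higher in C14 than in C13, and in the intron pairs the local background was a median of 6.16 times higher, against 5.62 times in the distal intergenic pairs. Fold enrichment, which divides by that background, was higher in C14 in 28 of the 54 pairs.

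**Figure D3:**
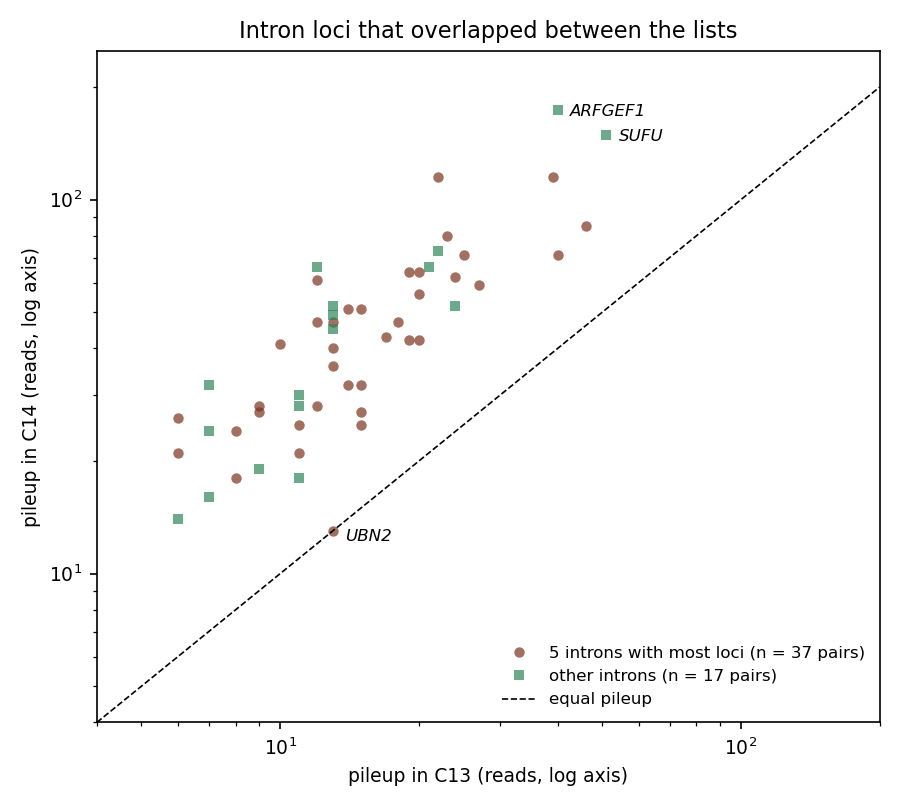
Pileup in C14 (y axis) against pileup in C13 (x axis), both in reads on log axes, for the 54 overlapping pairs of intron loci, with the 5 introns of most loci as circles and other introns as squares. The dashed line marks equal pileup, and 53 pairs lie above it.

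SUFU, a negative regulator of hedgehog signalling, held the intron locus that was most enriched over input in each list. It lay in intron 2 of 10 (chr26:23355131-23355406 in C13, chr26:23355132-23355515 in C14). The pileup was 51 in C13 (exact Poisson interval 38.0 to 67.1) and 149 in C14 (interval 126.0 to 174.9). Fold enrichment was 45.8 in C13 and 108.0 in C14, and the local background was 1.0 times the lowest of the list in C13 and 1.08 times in C14. The pileup ratio was 2.92 (exact interval 2.11 to 4.10). The assigned gene was TRIM8, with a TSS about 180 kb away, and SUFU was an assigned gene in neither list.

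ARFGEF1 encodes an exchange factor for ARF GTPases at the Golgi apparatus, and its values ran the other way. Its intron 32 of 38 held 2 loci in C13, with pileups of 50 and 40, and 1 in C14, with a pileup of 174, the highest of all intron loci. Fold enrichment was only 3.90 and 5.71 in C13 and 2.84 in C14. The local background there was 89.6 and 45.83 times the lowest in C13, and 169.0 times the lowest in C14.

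The remaining hosts with an overlapping position were FRMD5, UNC5D, DOCK9, ITIH5, ERC2, MRPS11, KATNBL1, CDK13, PDE5A and FANCC. UNC5D, a netrin receptor, had a pileup of 21 at the main summit in C13 and 66 in C14 in its intron 1 of 16. DOCK9, an exchange factor for CDC42, had 22 in C13 and 73 in C14. The cyclin-dependent kinase CDK13 had 24 in C13 and 52 in C14, and was assigned to MPLKIP in both. PDE5A, the phosphodiesterase that breaks down cyclic GMP, had 13 in C13 and 52 in C14 at the overlapping position, and was assigned to FABP2. FANCC, a member of the Fanconi anaemia core complex, had 13 in C13 and 2 summits of 49 and 45 in C14, and was assigned to TSPY. In each of these 5 genes the C14 pileup was the higher one. Fold enrichment at these positions was higher in C14 in UNC5D alone (24.1 against 18.3) and lower in the other 4, as 12.9 against 17.7 in DOCK9, 9.22 against 13.2 in CDK13, 7.78 against 12.3 in PDE5A, and 2.82 and 5.69 against 6.95 in FANCC. The overlapping loci in FRMD5, ITIH5, ERC2, MRPS11 and KATNBL1 were weaker in C13, with pileups of 6 to 11, and had 14 to 32 in C14. FRMD5, a FERM domain protein, had 2 positions in common in its intron 13 of 13, with pileups of 6 and 11 in C13. The first had 14 in C14, with a fold enrichment that was lower than in C13 (3.76 against 6.17), and the second carried 2 summits of 18 and 30, with higher fold enrichments (12.3 and 15.8 against 10.6). KATNBL1, a regulator of katanin, which severs microtubules, had 9 in C13 and 19 in C14. ITIH5, an inter-alpha-trypsin inhibitor heavy chain, had 7 in C13 and 2 summits of 16 and 32 in C14, with fold enrichments of 7.05 in C13 and 6.95 and 13.5 in C14. MRPS11, a protein of the mitochondrial ribosome, had 7 in C13 and 24 in C14, and in C14 alone a further interval with summits of 38 and 37. ERC2, a protein of the presynaptic active zone, had 11 in C13 and 28 in C14 at 86.3% of its length. Fold enrichment was lower in C14 than in C13 in KATNBL1 (5.75 against 8.81), MRPS11 (4.47 against 7.05) and ERC2 (5.23 against 8.59), in which the background was 6.90, 12.81 and 12.65 times the lowest of the C14 list.

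A shared host did not always mean a shared position. The lists had 22 host genes in common, which is 55.0% of the hosts of C13 and 37.3% of those of C14, and in 21 of them both lists named the same intron. In 5 of the 22 no position overlapped, namely ASB5, ASCC3, KIAA1324L, MET and ZNF75D. MET, the receptor of hepatocyte growth factor, is named here after its values were seen. Its intron 20 of 21 held a locus with a pileup of 14 in C13 and another, less than 1 kb away, with a pileup of 20 in C14. ASB5 intron 2 of 6 held 1 locus in C13 (pileup 7) and 2 in C14 (pileups 22 and 15). In KIAA1324L intron 1 of 21 the pileup was 9 in each list, with fold enrichments of 8.81 in C13 and 4.05 in C14. The -log10 q-values there were 10.3 in C13 and 1.70 in C14. ZNF75D intron 6 of 6 held 2 loci in C13 (pileups 5 and 4) and 1 in C14 (pileup 22). ASCC3, a helicase subunit of the activating signal cointegrator complex, was the host whose loci lay in different introns, 37 of 41 in C13 and 36 of 41 in C14.

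Hosts found in 1 list alone numbered 18 of 40 in C13 (45.0%) and 37 of 59 in C14 (62.7%). Among the genes assigned to any locus of a list, 62 of 188 in C13 (33.0%) and 165 of 291 in C14 (56.7%) were in that list alone, and no test was made of these shares. The loci of hosts in 1 list had low pileups, with a median of 5.0 over 20 loci in C13 and 7.0 over 40 loci in C14. The loci of hosts found in both lists had medians of 12 (63 loci) and 28.0 (102 loci). The 5 introns with most loci supplied 41 of these 63 loci and 73 of these 102, and without them the medians were 11 (22 loci) and 22 (29 loci). The share of loci with a -log10 q-value of at least 5 was 7 of 20 in C13 and 9 of 40 in C14 among hosts of 1 list, against 51 of 63 and 88 of 102 among hosts of both, or 19 of 22 and 26 of 29 without those introns. Over all loci of the lists this share was 70.0% in C13 and 68.4% in C14. The pileups of hosts in C13 alone reached 15, in ASB4, and those of hosts in C14 alone reached 34, in CHMP4B, a subunit of the ESCRT-III complex. Several loci stood out among the hosts of 1 list by number: GFRA3, a receptor of the GDNF family, held 3 loci in C14 with pileups of 9, 7 and 7. LRGUK, which is needed for sperm formation in the mouse, held 2 in C14 with pileups of 8 and 8. SYNPR, a synaptic vesicle protein, held 2 in C13 with pileups of 4 and 7, and LHFPL3 held 2 in C13 with pileups of 8 and 6. The intron loci nearest to the listing threshold, a q-value of 0.05, were those of SHOC2 in C13, which had 4 reads and a -log10 q-value of 1.5, and of MAP3K9 in C14, which had 5 reads and a value of 1.36.

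**Figure D4:**
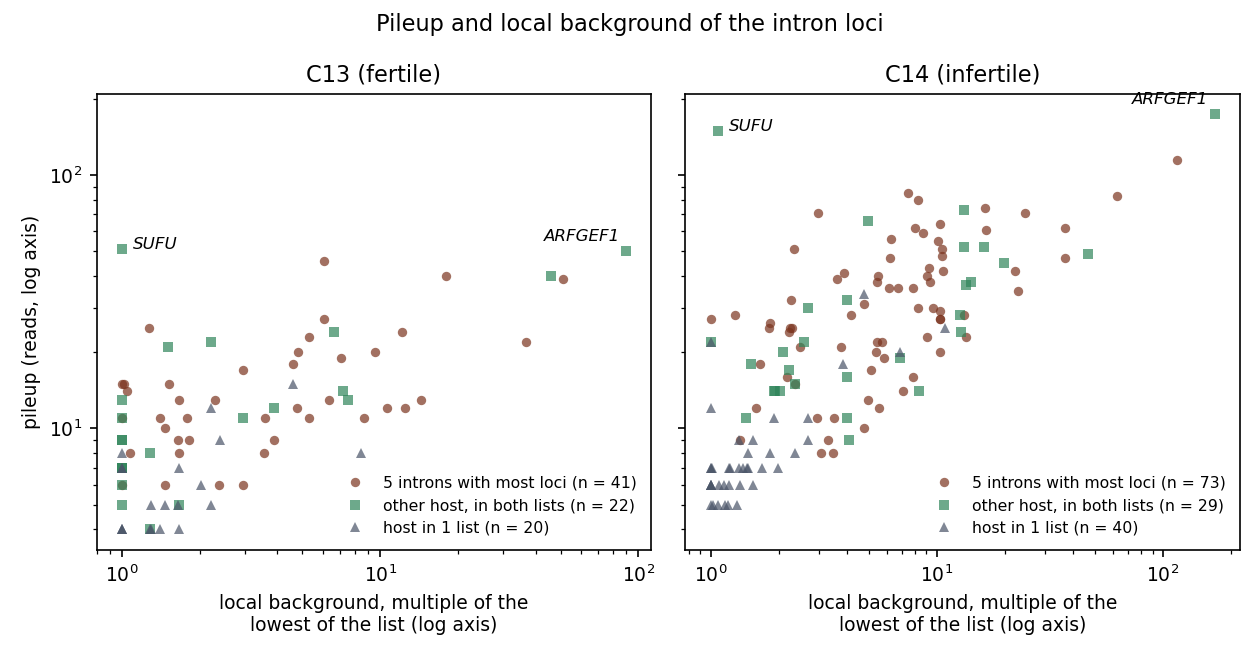
Pileup (y axis, reads, log axis) against local background (x axis, multiple of the lowest background of the list, log axis) for the 83 intron loci of C13 (left) and the 142 of C14 (right). Triangles, the loci of hosts in 1 list, gather at the low end of both axes, SUFU stands high at the lowest background, and ARFGEF1 stands at the highest background.

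Families of host genes were counted from name lists. The DNA repair genes among the hosts were WRN, FANCC and XRCC4, which is 3 of 77 hosts (3.9%), and such genes were 0.378% of the protein-coding genes of the reference table. XRCC4, a partner of DNA ligase IV in the joining of broken ends, held 1 locus in C13 with a pileup of 4, at the bottom of that list. The alpha-catenins, which link cadherins to actin, were also present with 3 genes, each in 1 list. With the cadherins they were 3.9% of the hosts and 0.3% of the table. The pileup was 4 in CTNNA1 in C13, 6 in CTNNA2 in C14 and 7 in CTNNA3 in C14. Glutamate receptors were GRIK2 in C13 (pileup 5) and GRM8 in C14 (pileup 6), 2.6% of the hosts and 0.12% of the table. The glycosyltransferase and sulfotransferase list held GALNT13 in C13 (pileup 5) and GALNTL6 and CHST11 in C14 (pileups 6 and 5), 3.9% of the hosts and 0.655% of the table. The synaptic adhesion list held UNC5D (1.3% of the hosts, 0.346% of the table) and the cyclic nucleotide list held PDE5A (1.3% and 0.166%), both in each list of loci. The sperm and flagellum list held MOSPD2 in C13 alone (pileup 7), 1.3% of the hosts and 0.992% of the table. That list was made by gene name, so a match does not show a role in sperm. Nor does it hold every gene with such a role: LRGUK, a host in C14 alone, is not in it. QSOX1 and CLIC5, which the paper's discussion ties to sperm function, were also hosts in C14 alone and are not in it. No voltage-gated channel gene was a host, and such genes were 0.623% of the table. The shares of the table count each gene once, whatever its length, whereas long introns offer more sequence in which a locus can lie. GRIK2, CTNNA3 and GALNTL6 were among the longest assigned hosts. The part of gene length in these shares was not tested, and no test was made of these counts.

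The host gene was the assigned gene for 42 of 83 intron loci in C13 (50.6%, interval 40.1 to 61.1) and 83 of 142 in C14 (58.5%, interval 50.2 to 66.2). The difference of 7.85 percentage points had an interval of -5.48 to 20.9 (Fisher's exact test, two-sided, p = 0.269, adjusted p = 0.573). The choice between host and nearest TSS changed the gene list. In C13, 14 hosts were assigned to no locus of that list, SUFU, FANCC, PDE5A, CDK13 and CTNNA1 among them. In C14 there were 13, with SUFU, FANCC, CDK13, CTNNA2 and GRM8 among them. In the opposite direction, 17 assigned genes of C13 and 18 of C14 were listed through loci in the introns of other genes alone, and ST3GAL4, TTI2, TRIM8, FMC1, MPLKIP, FABP2, SIM1, SPATA4 and ZNF449 were so listed in both. Where another gene was assigned, its TSS was a median of 163.4 kb away in C13 and 170.0 kb in C14. Where the host was assigned, its own TSS was a median of 82.15 kb away in C13 and 78.59 kb in C14.

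Assigned hosts were long. Their gene length had a median of 206.6 kb over 24 genes in C13 and 137.9 kb over 42 genes in C14. The median over the genes assigned to distal intergenic loci was 31.39 kb and 31.16 kb. A host must contain its locus, whereas those genes need not, so the sets were not chosen alike. The difference in length therefore follows at least in part from how the classes are defined. The longest assigned hosts of C13 were GRIK2 (744111 bp), UNC5D (654327 bp) and RNF122. Those of C14 were CTNNA3 (1880379 bp), GALNTL6 (1513912 bp) and FSTL5 (878129 bp), each with 1 locus, and their pileups were 7, 6 and 6. The GALNTL6 locus lay 878273 bp from its TSS, the greatest distance among intron loci. Within the gene, the loci began a median of 41.2% along its length in C13 and 51.4% in C14, with ranges of 1.95% to 86.5% and 1.94% to 94.7%.

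The listed intron rank had to be read with the strand. Among plus-strand hosts the rank, as a share of the introns of the transcript, rose with distance from the TSS (Spearman's rho 0.78 over 31 host introns, as a description). Among minus-strand hosts it fell (rho -0.52 over 22 host introns). DOCK9 was listed in intron 51 of 52 at 19.4% of the gene length, and RNF122 in its last intron from 1.94% onwards. ADAMTS3, on the minus strand, was listed in intron 17 of 21 at 80.9% to 86.5%. The direction in which introns were numbered is not given in the sources used here.

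**Figure D5:**
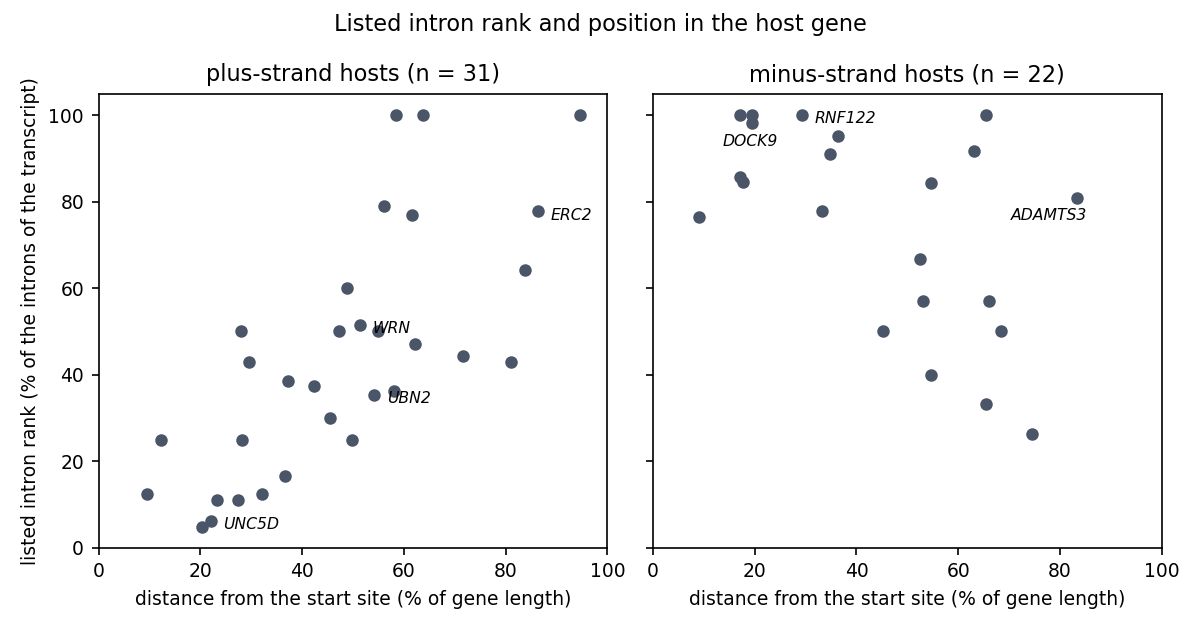
Listed intron rank as a percentage of the introns of the transcript (y axis) against distance from the start site as a percentage of gene length (x axis), with 1 point per host intron, for 31 introns of plus-strand hosts (left) and 22 of minus-strand hosts (right). Points rise to the right on the plus strand and fall on the minus strand, with rho of 0.78 and -0.52.

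With ranks as listed, 10 of 83 intron loci of C13 (12%, interval 6.68 to 20.8) and 11 of 142 of C14 (7.75%, interval 4.38 to 13.3) lay in intron 1. The difference was -4.30 percentage points (interval -13.7 to 3.45, Fisher's exact test, two-sided, p = 0.344, adjusted p = 0.573). Those with an assigned host lay in KATNBL1, UNC5D and KIAA1324L in both lists, in N4BP2L1, SHOC2 and ASB4 in C13, and in MB21D2, CHMP4B, ELF2, C7H19orf52 and TGFBR1 in C14. C7H19orf52 was listed on chromosome 26, although its symbol names chromosome 7. MB21D2 has only 1 intron in the annotation. The pileups of these loci ran from 4 in SHOC2 to 21 in UNC5D in C13, and from 5 in TGFBR1 to 66 in UNC5D in C14. They began 11.25 to 144.3 kb from the TSS in C13 and 4.009 to 144.3 kb in C14. Strand was known where the host was the assigned gene of any locus in either list, intron or not, and none of the hosts known to be on the minus strand was listed with intron 1. The other 3 loci of C13 and 2 of C14 in intron 1 had hosts of unknown strand. When the rank was counted from the other end on minus-strand hosts, which places the RNF122 loci in intron 1, the counts were 25 of 69 loci in C13 (36.2%) and 31 of 125 in C14 (24.8%), among hosts of known strand. The difference was then -11.4 points (Fisher's exact test, adjusted p = 0.448).

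In the size of the signal the intron loci were close to the distal intergenic loci. Intron loci were 22.4% of all loci in C13 (interval 18.5 to 26.9) and 23.1% in C14 (interval 20.0 to 26.6), a difference of 0.695 points (interval -4.82 to 5.97, Fisher's exact test, two-sided, p = 0.815, adjusted p = 0.90). The median pileup was 11.0 in C13 and 21.5 in C14 for intron loci, and 9.0 and 18.0 for distal intergenic loci. The quartiles were 7.0 and 15.0 in C13 and 9.0 and 38.0 in C14 for intron loci. They were 6.0 and 16 in C13 and 11.0 and 30.0 in C14 for distal intergenic loci. Median fold enrichment was 7.56 and 6.75 for intron loci and 7.60 and 6.89 for distal intergenic loci. Median width was 237.0 and 236 bp against 237.5 and 242.0 bp. Median distance to the assigned TSS was shorter for intron loci, at 110.5 and 104.3 kb against 186.7 and 181.4 kb.

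The median pileup differed between the 5 introns with most loci and the other introns. In the 5 introns it was 13 in C13 and 29 in C14, and elsewhere it was 7.0 and 11.0. The local background moved with the pileup. Its median was 3.56 times the lowest of the list in C13 and 6.13 times in C14 in the 5 introns, and 1.35 and 1.84 times elsewhere. The part of the background in this difference was not tested. Outside the 5 introns, 22 of 42 loci of C13 and 26 of 69 of C14 had a pileup of 7 or less, as against 4 of 41 and 0 of 73 inside them.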

How the data were processed

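OG-seq libraries from sperm DNA of 1 fertile and 1 infertile bull had been sequenced as paired ends. Per the methods and the submitters' processing notes, the authors aligned reads to bosTau8 with Isaac, removed duplicates with Picard, called peaks per bull against its input with MACS2 and annotated them with ChIPseeker. Loci with a fold above 2 and q below 0.05 were listed. The deposited values are the pileup signal at the summit, -log10 p and -log10 q (p-value and q-value), the fold enrichment ratio over input, and, as plain score columns, the distance to the TSS and the gene length. The deposited pileups were whole numbers in every row and were taken here as coverage not pooled or scaled between bulls. Library depth is not given in the files. The study describes more reads and a higher mapped share for the enriched library of C14 than for that of C13, and pileups were compared here without scaling for this.

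Rows whose annotation begins with Intron were taken. Host gene numbers were matched to symbols in the RefSeq gene table of ARS-UCD2.0, used for names only, and coordinates are those of the deposited lists in bosTau8. Some symbols differ between the sources, and those of the lists were kept. Local background was computed as (pileup + 1) / fold - 1. Overlap meant at least 1 bp, and was checked with bedtools 2.31.1. Shares were compared by two-sided Fisher's exact tests (scipy 1.17.1) with Benjamini-Hochberg adjustment over 5 tests, 95% Wilson intervals and Newcombe intervals of differences. The scripts were tested on simulated data.

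Named genes were hosts with an overlapping locus or 2 or more loci, the 3 loci highest in pileup and in fold per list, the 3 longest assigned hosts, hosts in the family lists, assigned hosts listed in intron 1 and the loci next to a threshold used. The members and lists were chosen with earlier results of these data known. Alternatives were stricter q-values, distinct intervals, host genes as the unit, other overlap rules and other classes of locus. Leaving out the 5 introns with most loci and counting ranks from the other end were added after seeing the data. Rows outside introns and distal intergenic sequence entered only the totals.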

Additional observations from a re-analysis of the deposited data

How the results depend on the processing

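No paired analysis was possible because each bull had 1 enriched library and 1 input library, and no replicate could be left out. None of the 5 Fisher tests passed the threshold as reported or under any of their alternatives. Of 61 alternative values, 50 kept their direction and side of the threshold or stayed within the counting interval. The difference in overlap between intron and distal intergenic loci of C13, -1.12 percentage points, changed sign at a -log10 q-value of at least 2 (0.889), with a reciprocal overlap of at least 50% (1.4) and with a gap of at most 1000 bp (3.14), and the cause was not tested. At a -log10 q-value of at least 5 the median pileup rose to 12.5 in C13 and 30.0 in C14, and median fold enrichment to 8.99 in C13 and 9.33 in C14, which follows from fewer weak loci. Without the 5 introns with most loci, a setting chosen after seeing the data, the median pileup was 7.0 in C13 and 11.0 in C14, median fold enrichment in C14 was 5.69 and the median position in the host gene in C13 was 32.7%. The number of hosts in both lists was 22, and 21 and 19 at the stricter q-values.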
